A study of Mus with 30 samples.

Results

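The hearts of 5 mice given angiotensin II (Ang II) together with gastrodin were compared with the hearts of 5 Control mice that received saline, which makes 10 of the 30 libraries of the series. The members were chosen by their group labels alone, AngII+GAS against Control, and no measured value was used to choose them. All mice were young adult males of C57BL/6, an inbred laboratory strain. Infusion lasted 28 days in both groups. In the Control group the infusion and the treatment were saline. In the AngII+GAS group Ang II was infused at 500 ng/kg/min and gastrodin was given into the stomach at 5 mg/kg/day. No transgene or deletion was involved, and the tissue was the left part of the heart after it was divided lengthwise, so the RNA came from all cell types in that part. The comparison asks what still differs from saline hearts when gastrodin accompanies Ang II. It holds no mice given gastrodin alone, so an action of Ang II that gastrodin left in place and an action of gastrodin itself cannot be told apart.

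Ang II is the effector hormone of the renin-angiotensin system, which constricts vessels and raises blood pressure, and its prolonged infusion is a standard model of hypertensive enlargement and fibrosis of the heart. Gastrodin is a phenolic glycoside from the orchid *Gastrodia elata*, used in traditional Chinese medicine. Most genes give rise to several transcripts that share exons, and a short read from a shared exon has to be assigned to one of them. A table of transcripts therefore holds both the output of a gene and the division of that output among its transcripts.

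Each table gives one value per transcript, read as FPKM (fragments per transcript length and library size), under an Ensembl transcript identifier or under the name of a merged transcript model such as MERGE.8574.6, in which the first number is that of the locus and the last that of the model. The tables do not pair these names with genes, and 0 identifiers matched the reference table used here, so pathways, cell type markers and the labelled tissue were not checked through genes, and at most 2 transcripts per direction are named. Of 29449 transcripts present in all 10 tables, 18484 were at 1 FPKM or more in at least 5 mice and were tested, 14276 of them Ensembl transcripts and 4208 merged models. Summed FPKM ran from 578476 to 649783 in the AngII+GAS mice and from 585451 to 654188 in Control. Neither this sum, the number of transcripts at 1 FPKM or more, the number listed at 0, nor the share held by the 100 most abundant transcripts passed an exact permutation test over all divisions of the 10 mice into 5 and 5 (two-sided, p from 0.325 to 0.849, adjusted p from 0.774 to 0.849 over 5 measures). The Control mice were spread more widely, with 67.0% to 74.8% of the sum in the 100 most abundant transcripts against 69.8% to 74.3% in the AngII+GAS mice. Across the tested transcripts, the mean correlation of log2(FPKM + 1) was 0.8232 between Control mice, 0.8299 between AngII+GAS mice and 0.8252 between mice of different groups, and the excess within groups did not pass (exact permutation test, one-sided, p = 0.127, adjusted p = 0.635).

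At an adjusted p under 0.05, 7 transcripts were higher and 6 were lower in the AngII+GAS hearts than in Control (limma on log2(FPKM + 1), Benjamini-Hochberg over all 18484). These are 0.0379% and 0.0325% of the transcripts tested. In all 13 the ranges of the 5 and 5 mice did not overlap, which held for 1.96% of all transcripts tested. The differences ran from 0.71 to 4.47 on the log2(FPKM + 1) scale among the higher transcripts and from 0.51 to 1.98 in size among the lower ones. In a bulk sample, fewer cells of a type and less RNA per cell cannot be told apart. Of the 13, 7 were above 0 in all 10 mice. The other 6 reached 1 FPKM in one of the groups only, so they passed the filter through the group in which they are high and had to differ. MERGE.8574.6, MERGE.19990.6 and ENSMUST00000202444, named below, are among these 6, and their p-values carry that limit. With all 6 groups of the series in one fit, the spread comes from 30 mice. The set tested also changed, to 24844 transcripts present in all 30 tables and at 1 FPKM or more in at least 5 mice. None of the 13 passed there (limma, adjusted p under 0.05 for 5 other transcripts higher and 2 lower, unadjusted p under 0.05 for 885 higher and 1032 lower of the 24844).

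The number of calls moved with single mice, and in both directions. It rose to 9 higher without Control mouse 5114 and to 9 lower without AngII+GAS mouse 5158. Without Control mouse 5155 there were 2 higher and 1 lower, without 5116 there were 4 and 1, and without 5193 there were 4 and 2. Without AngII+GAS mouse 5135 there were 2 higher, without 5158 there was 1, and without 5120, 5163 or 5112 there were 0 (limma, with 587, 532 and 657 higher at an unadjusted p under 0.05). Without 5112 there were also 3 lower instead of 6. Leaving out any AngII+GAS mouse took 4 of the 7 higher transcripts below the filter, since only 4 mice then reached 1 FPKM, and leaving out any Control mouse did so for 2 of the 6 lower ones.

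**Figure D1:**
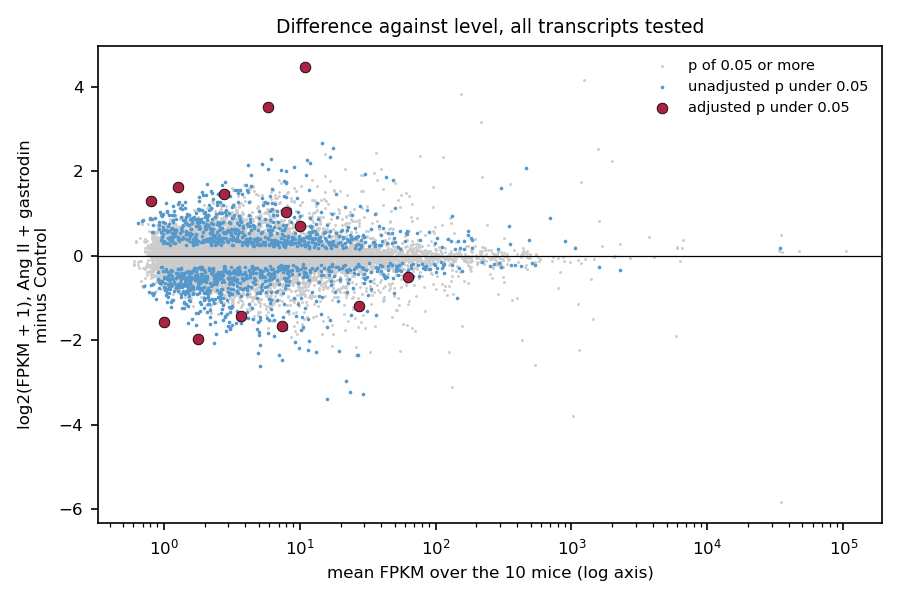
Difference between the AngII+GAS and Control groups on the log2(FPKM + 1) scale (vertical axis) against the mean FPKM over the 10 mice (horizontal log axis) for the 18484 transcripts tested, 1 point per transcript. The 13 transcripts at an adjusted p under 0.05 are the large dark red points, 7 above and 6 below the line of no difference.

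The largest difference among the 13 lay within one locus. MERGE.8574.6, the sixth model of locus MERGE.8574, was at 24.1, 21.9, 12.4, 23.3 and 27.3 FPKM in the 5 AngII+GAS mice and was listed at 0 in all 5 Control mice. The groups did not overlap, and the lowest AngII+GAS value was in mouse 5120. This model passed the filter through the AngII+GAS group alone. Because Control was at 0 no fold is given, and the fitted difference of 4.47 (standard error 0.19, adjusted p = 8.4e-06, limma) depends on the pseudocount of 1. The other models of the locus went the opposite way. The fifth model was at 7.38, 5.17, 5.83, 5.88 and 5.16 FPKM in Control and at 1.41, 1.45, 2.54, 1.46 and 1.11 FPKM in the AngII+GAS mice, a log2 difference of -1.42 (standard error 0.16, adjusted p = 0.0142, limma). The fourth model was at 11.3 to 25.3 FPKM in Control and at 2.47 to 6.54 FPKM in the AngII+GAS mice, with an adjusted p of 0.121 (limma). Both were low in the same 5 hearts in which the sixth model was high.

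The summed level of the locus differed far less than its composition. The 3 models together came to 22.6 ± 7.13 FPKM in Control and 27.7 ± 3.67 FPKM in the AngII+GAS group (SD, n = 5 in each), a log2 difference of 0.33 (standard error 0.20, adjusted p = 0.707, limma on locus sums). The sixth model made up 0.0% of the sum in all 5 Control hearts and between 57.7% and 88.4% in the AngII+GAS hearts, with a median of 80.0%. The same division of the locus was seen outside these 10 mice. In the 20 mice that received Ang II alone or with another drug, the sixth model was listed at 0 in 5 and was at 6.54 FPKM or more in the other 15. It was absent in 1 of 5 mice with Ang II alone, with ethoxysanguinarine or with baicalin, and in 2 of 5 with valsartan. The summed level in these 20 mice lay between 14.2 and 31.4 FPKM. Ensembl transcripts of the same locus, if any, could not be added, since the names do not place them.

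**Figure D2:**
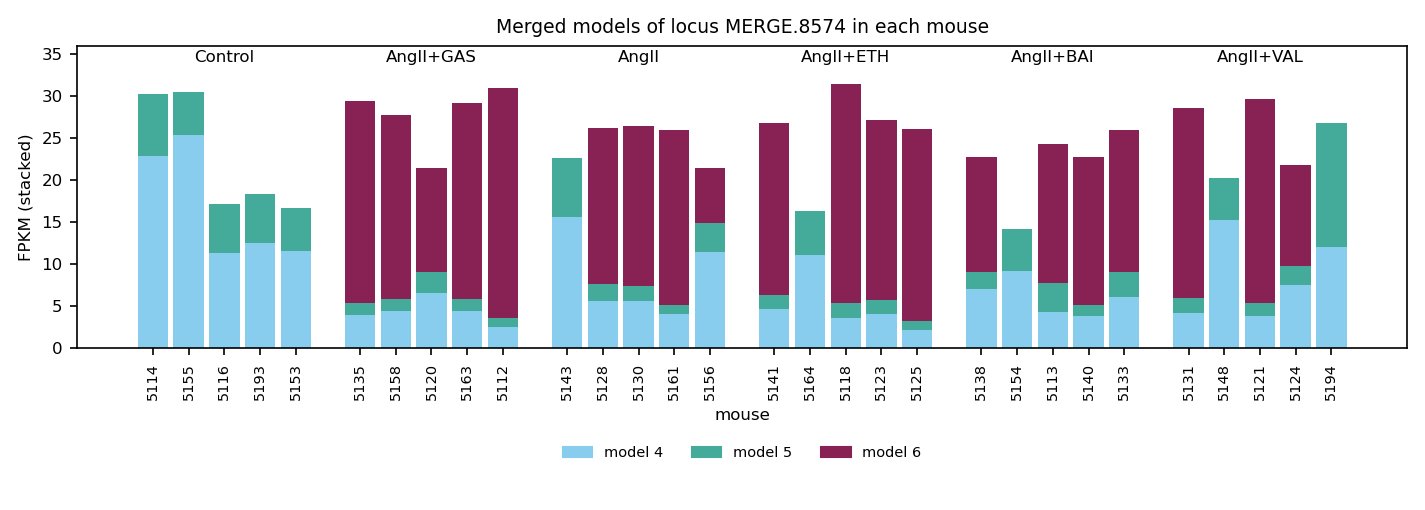
Stacked FPKM of the 3 merged models of locus MERGE.8574 in each of the 30 mice, grouped by treatment, with model 6 in dark red. The 5 Control bars hold no dark red, the 5 AngII+GAS bars are mostly dark red, and 5 of the 20 other bars hold none, while bar heights in the Control and AngII+GAS groups overlap.

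The next largest difference was that of MERGE.19990.6. It was at 9.27, 12.7, 14.1, 8.45 and 13.2 FPKM in the AngII+GAS mice and at 0.0233, 0.0805, 0, 0.0396 and 0.240 FPKM in Control. This is 11.6 ± 2.52 against 0.0768 ± 0.0960 FPKM (SD, n = 5), with a log2 difference of 3.52 (standard error 0.16, adjusted p = 8.4e-06, limma). It passed the filter through the AngII+GAS group alone, so it had to differ. No other model of its locus was present in all 10 tables. In the 20 other Ang II infused mice it was at 0 in 6, under 1 FPKM in 7 and at most 11.2 FPKM, and 4 of the 20 lay within the AngII+GAS range.

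Among the lower transcripts, ENSMUST00000107843 was at 12.3, 10.2, 10.7, 12.1 and 12.8 FPKM in Control and at 3.53, 1.60, 2.45, 5.09 and 2.89 FPKM in the AngII+GAS mice. Every AngII+GAS value was below every Control value, and no mouse was at 0. The means were 11.6 ± 1.09 and 3.11 ± 1.31 FPKM (SD, n = 5), and the log2 difference was -1.67 (standard error 0.20, adjusted p = 0.0208, limma). In the 20 other mice it ranged from 2.14 to 10.9 FPKM, below the lowest Control mouse in 18 of them. Its call was lost when any Control mouse, or AngII+GAS mouse 5135, 5120 or 5112, was left out (adjusted p up to 0.128, limma).

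MERGE.19990.6 was low where ENSMUST00000107843 was high in both groups of the comparison. This had to be so, since the first was named as higher and the second as lower. The pair was chosen for a sum after these values were seen. The sum was 10.3 to 13.0 FPKM in Control and 12.8 to 16.5 FPKM in the AngII+GAS group. In the other 20 mice, which did not enter the choice, the sum ran from 2.21 to 14.5 FPKM with a median of 10.9. This span was wider than that of either transcript alone (0 to 11.2 and 2.14 to 10.9 FPKM). Its lower end came from a single mouse, 5118, given ethoxysanguinarine, in which both were low (0.0640 and 2.14 FPKM). In the 6 of these mice with MERGE.19990.6 at 0, the sum was the level of ENSMUST00000107843 alone, at 5.95 to 10.9 FPKM. Whether the levels of the pair go together was not tested. The tables do not say whether they belong to one gene.

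ENSMUST00000202444 was at 4.46, 3.24, 2.96, 3.54 and 2.95 FPKM in Control and was listed at 0 in every AngII+GAS mouse but 5163, which had 0.732 FPKM. The fitted log2 difference was -1.98 (standard error 0.19, adjusted p = 0.00458, limma), and with a pseudocount of 0.1 it was -4.51 and no longer passed (adjusted p = 0.0756, limma). This transcript passed the filter through Control alone. The mice given Ang II alone had 0, 4.72, 4.24, 5.26 and 4.76 FPKM. In the 20 other Ang II infused mice it was at 0 in 8, and in 4 it was above the highest Control value. Values of 0 beside values at the Control level thus occurred within the other Ang II groups.

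**Figure D3:**
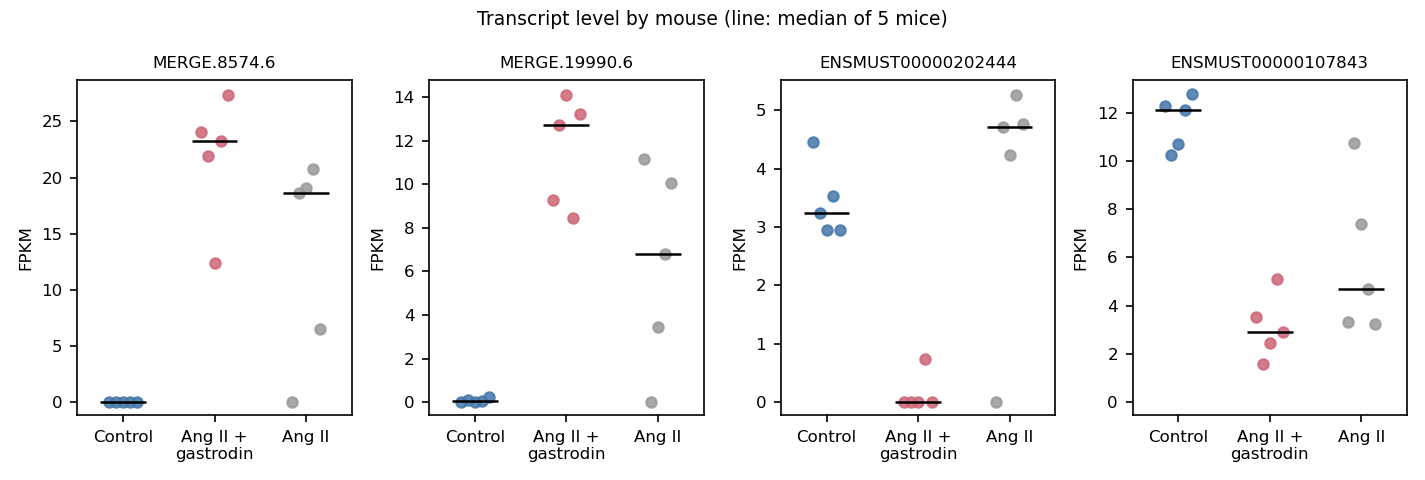
FPKM (linear axis, a separate scale for each panel) of MERGE.8574.6, MERGE.19990.6, ENSMUST00000202444 and ENSMUST00000107843 in the Control, AngII+GAS and AngII groups, 1 point per mouse and a line at the median of 5 mice. The Control and AngII+GAS points do not overlap in any panel, while the Ang II points of the first 3 panels include a mouse at 0 beside mice at high values.

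The mice given Ang II alone are given as a description with no test, since the transcripts were picked with the other groups. For MERGE.8574.6 they had 0, 18.6, 19.1, 20.8 and 6.54 FPKM, so that 3 of 5 lay within the AngII+GAS range. For MERGE.19990.6 they had 11.2, 0, 3.44, 6.82 and 10.1 FPKM, with 2 of 5 in that range. For ENSMUST00000107843 they had 3.32, 10.8, 7.39, 4.71 and 3.24 FPKM, with 3 of 5 in the AngII+GAS range and 1 in the Control range. Of the 13 transcripts called, 7 had at least 1 Ang II mouse within the Control range and at least 1 within the AngII+GAS range. No share over all transcripts tested stands beside this count, so it is not read as high or low.

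The 7 called transcripts above 0 in all 10 mice do not rest on values of 0. Of these, 3 were higher and 4 were lower with Ang II and gastrodin. The most abundant was an Ensembl transcript at 71.5, 73.1, 69.5, 69.0 and 84.4 FPKM in Control and at 51.9, 52.1, 52.0, 49.3 and 50.9 FPKM in the AngII+GAS mice. The AngII+GAS values lay close together, and the log2 difference of -0.51 (standard error 0.07, adjusted p = 0.0397, limma) was the smallest of the 13. The Ang II mice spanned both levels, with 45.6 to 80.6 FPKM. A second Ensembl transcript was at 42.4, 45.9, 33.5, 32.1 and 37.5 FPKM in Control and at 18.3, 16.4, 15.8, 15.7 and 14.1 FPKM in the AngII+GAS mice, which is 38.3 ± 5.85 against 16.0 ± 1.51 FPKM (SD, n = 5, log2 difference -1.20, adjusted p = 0.00458, limma). It passed in 20 of the 21 alternative settings, and the exception was the fit of all 6 groups (adjusted p = 0.209, limma). The transcript at 73.5 FPKM in Control passed in only 6 of 21.

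Among the higher ones, an Ensembl transcript was at 5.32, 5.59, 3.44, 4.53 and 5.54 FPKM in Control and at 10.6, 10.3, 11.3, 11.0 and 11.9 FPKM in the AngII+GAS mice (log2 difference 1.04, standard error 0.12, adjusted p = 0.0208, limma). The ratio of the group means was 2.25. The Ang II mice were at 12.9, 6.11, 9.70, 13.4 and 2.11 FPKM, from below every Control mouse to above every AngII+GAS mouse. Another was at 6.66 to 8.07 FPKM in Control and at 11.9 to 13.8 FPKM in the AngII+GAS mice, a ratio of means of 1.72 (adjusted p = 0.0208, limma). The Ang II mice lay between these groups or below Control for that transcript, at 5.17 to 10.7 FPKM, so none reached the AngII+GAS range. The first of these passed in 12 of 21 alternative settings and the second in 8 of 21. The third was a merged model at 0.518 to 1.88 FPKM in Control and 3.68 to 5.28 FPKM in the AngII+GAS mice (adjusted p = 0.0396, limma), and it passed in 4 of the 18 alternative settings in which it was tested. The 12 models of its locus present in all 10 tables summed to 10.1 ± 2.81 FPKM in Control and 10.04 ± 1.72 FPKM in the AngII+GAS group (SD, n = 5), with a log2 difference of 0.01 (standard error 0.19, limma on locus sums).

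**Figure D4:**
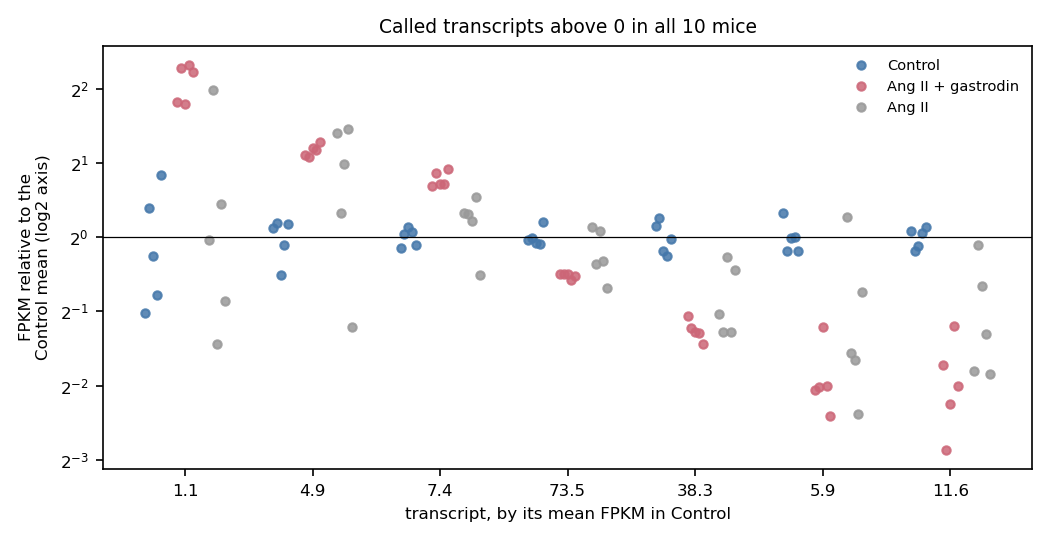
FPKM of the 7 called transcripts above 0 in all 10 mice, each divided by its own mean in Control (log2 axis), with 1 point per mouse in the Control, AngII+GAS and AngII groups. Transcripts stand in order of their difference and are marked by their mean FPKM in Control. The AngII+GAS and Control points are separate in all 7, and the Ang II points span a wider range than the AngII+GAS points in each.

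At an unadjusted p under 0.05, 693 transcripts were higher and 727 lower in the AngII+GAS hearts (limma). These are 3.75% and 3.93% of those tested, and together 7.68%, where 924 transcripts are expected if nothing differed and the transcripts were independent. With a fold change of 2 or more as well, a pair of thresholds used in the study, 119 were higher (0.644%) and 131 lower (0.709%). The balance of directions rested on single mice, with 773 higher and 507 lower at the unadjusted threshold without Control mouse 5155, 774 and 525 without 5153, and 560 and 933 without 5116. Of the 250 past both thresholds, 95 held a 0 in one or more libraries, and 14.3% of everything tested did so.

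The share of transcripts at an unadjusted p under 0.05 was larger at higher levels in the fit with the mean-variance trend, and this pattern was lost without the trend. With the trend it was 6.22% of 6242 transcripts with a mean under 2 FPKM, 7.04% of 6180 between 2 and 5, 8.91% of 4368 between 5 and 20, 11.8% of 1343 between 20 and 100, and 14.0% of 351 at 100 FPKM or more. In the highest class 25 were higher and 24 lower, and only 2 of them reached a fold change of 2. The median SD within groups was 0.40 in the lowest class and 0.18 in the highest on the log2(FPKM + 1) scale, and the median size of the difference was 0.18 and 0.12. Without the trend the shares of the 5 classes, from the lowest level to the highest, were 7.03%, 7.31%, 7.99%, 8.41% and 7.12% (limma), so the lowest and the highest class hardly differed. With each library scaled to one sum the share was 5.46% in the lowest class and 8.52% in the highest. Its direction moved with single mice, from 21 higher and 39 lower without Control mouse 5114 to 33 higher and 11 lower without Control mouse 5155.

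**Figure D5:**
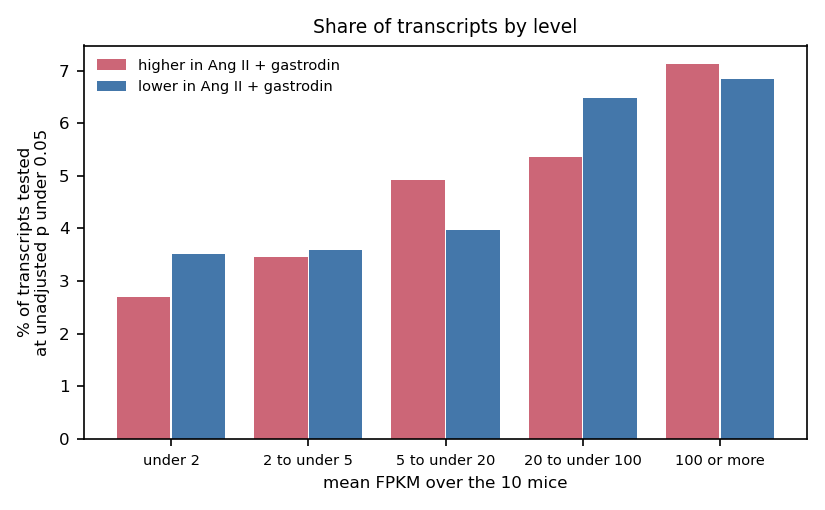
Percent of transcripts tested with an unadjusted p under 0.05 (vertical axis) by mean FPKM over the 10 mice (horizontal axis), separately for transcripts higher and lower in the AngII+GAS group. The share runs from 6.22% in both directions together below 2 FPKM to 14.0% at 100 FPKM or more in this fit with the mean-variance trend, and from 7.03% to 7.12% without the trend.

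Merged models and Ensembl transcripts passed an unadjusted p under 0.05 in 7.56% of 4208 and 7.72% of 14276 cases. Past the fold change of 2 the shares were 2.31% (97 models) and 1.07% (153 transcripts). Of the 97 models, 61 stood in a locus with at least 2 models present in all 10 tables. The sum of that locus passed an unadjusted p under 0.05 in the same direction for 17 of the 61 and in the opposite direction for 1, and reached a fold change of 2 in the same direction for 8. Each sum holds the model that was picked, in the same mice, so the shared direction was partly built in. Locus MERGE.8574 is one of those in which the models differed and the sum did not pass. The sum moved with the model at the locus of another called model, which was lower in the AngII+GAS hearts. The 3 models of that locus summed to 2.62 ± 1.44 FPKM in Control and 0.626 ± 0.763 FPKM in the AngII+GAS group (SD). The log2 difference of this sum was -1.19 (standard error 0.34, unadjusted p = 0.00611, adjusted p = 0.417, limma on locus sums). At the locus with 12 models, described above, it was 0.01. Among all 1306 loci with at least 2 models, 115 sums (8.81%) had an unadjusted p under 0.05 in either direction (limma). These loci were not picked by a model, so this share is no like measure for the 61.

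Values that were high in some mice of a group and 0 in others occurred within both groups, for a small part of the transcripts. Among the 29449 transcripts present in all tables, 445 were at 0 in at least 1 Control mouse and at 10 FPKM or more in another, and 404 did so in the AngII+GAS group. The largest difference of any tested transcript did not pass, and its values were high in some mice and low, though not 0, in others of the same group. This Ensembl transcript, singled out after its values were seen, was at 60170, 49687, 54917 and 63832 FPKM in 4 Control mice and at 1.58 FPKM in mouse 5153. In the AngII+GAS group it was at 56001 and 65667 FPKM in mice 5163 and 5112, and at 0.901, 1.11 and 2.15 FPKM in the others. The log2 difference was -5.82, with a p of 0.192 (adjusted p = 0.774, limma). In all, 54 transcripts differed by 2 or more on the log2 scale, of which 27 were at 0 in at least 1 mouse, 21 had an unadjusted p of 0.05 or more and 2 passed the adjusted threshold.

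Transcripts listed for one group only fall outside the test. The authors' tables keep a transcript where its mean reached 0.5 FPKM in one of the groups tabulated together, which were Control with Ang II and, from the values, AngII+GAS with Ang II. This left 1629 transcripts listed for AngII+GAS and not for Control, of which 251 had a mean of 1 FPKM or more. It left 2403 listed for Control and not for AngII+GAS, of which 294 had such a mean. The median of their means was 0.637 and 0.62 FPKM, and 43.8% of the former and 33.0% of the latter held a 0 in one or more of their 5 libraries. At 1 FPKM or more in all 5 mice were 5 of those listed for Control and 1 of those listed for AngII+GAS, the latter at 1.69, 2.40, 2.44, 1.21 and 1.92 FPKM.

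Of the 5 listed for Control, 4 were at 1.01 to 3.87 FPKM. The fifth, an Ensembl transcript, was at 19.0, 19.6, 16.3, 13.9 and 20.8 FPKM in Control and at 0.0506, 0, 0.0490, 0.154 and 0.0710 FPKM in the mice given Ang II alone. Every transcript with an Ang II mean of 0.5 FPKM or more is in the AngII+GAS tables, and none there has a mean below 0.5 in both groups. A transcript listed for Control and not for AngII+GAS therefore had to have an Ang II mean below 0.5 FPKM. The low values of the fifth transcript with Ang II alone thus follow from how it was picked. If the rule of the tables holds throughout, this transcript had a mean below 0.5 FPKM with gastrodin as well. No value for it was given in the AngII+GAS mice, so it was not tested. With baicalin it reached 1 FPKM in 1 of 5 mice, with ethoxysanguinarine in 2 and with valsartan in 3, at up to 14.6 FPKM.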

How the data were processed

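Total RNA of cardiac tissue was depleted of ribosomal RNA and sequenced by the authors. The deposited tables hold 1 value per transcript and mouse, read here as FPKM. The unit, aligner, assembler, quantifier and annotation were not stated in any source used, and TPM of a filtered table would look alike. Build mm10 and limma appear in the submitters' processing notes, and the methods name DESeq. The methods state more mice per group than the 5 in the labels. Counts were not recovered, so the depth per mouse is unknown and the precision rests on the spread between mice.

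Groups came from the labels. Transcripts present in all 10 tables and at 1 FPKM or more in at least 5 were compared on log2(FPKM + 1) with limma 3.58.1 in R 4.3.3 (mean-variance trend, two-sided, the 10 libraries only, Benjamini-Hochberg over all transcripts tested). Because of the pseudocount, differences of low transcripts are understated. The test was checked on simulated data, normal draws on the log2 scale with the mean and spread of each transcript. Such draws do not reproduce zeros beside high values within a group, so the check does not cover them. Library measures were compared with exact permutation tests. Plots were made in matplotlib 3.10.9 under Python 3.11.15.

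Transcripts to be named had an adjusted p under 0.05, no overlap between the groups and a mean of 1 FPKM or more in the higher group, in order of the size of the difference. Without gene names, the rule limits them to 2 per direction, and the others are described without an identifier. The comparison, lists and rules were chosen with earlier results of these data known. Sums per gene, the genes to be named in any case and the pathway and cell type lists were not analysed here, since 0 identifiers matched a gene. Locus sums, array weights and the removal of transcripts with a 0 were added after the data were seen.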

Additional observations from a re-analysis of the deposited data

Results flagged for a closer look

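Within groups of 5 mice, the highest or lowest value was compared with the gap to its neighbour in 23 checks of the library measures, the named transcripts and locus MERGE.8574. In 2 checks 1 mouse stood apart, where chance flags about 1 in 20. AngII+GAS mouse 5120 had 2.54 FPKM of the fifth model of locus MERGE.8574, compared with 1.11 to 1.46 FPKM in the rest of its group. AngII+GAS mouse 5163 had 0.732 FPKM of ENSMUST00000202444, which was listed at 0 in the rest of its group. Beside values that are all 0, any value above 0 would be flagged, so the rate of 1 in 20 does not hold there. No library measure of any of the 10 mice stood apart in this way.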

How the results depend on the processing

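No paired analysis was possible because the mouse numbers in the labels are not shared between the groups. The sums per gene and the gene lists were not run, since no identifier matched a gene. At an adjusted p under 0.05 (limma), 7 transcripts were higher and 6 lower. The number higher was 4 with each library scaled to one sum, with a pseudocount of 0.1, with a mean of 5 FPKM or more, and with Ensembl identifiers only, and 2 among transcripts above 0 in all 10 mice. The number lower was 3 with a mean of 5 FPKM or more, with locus sums and among transcripts above 0 in all 10 mice, and 2 with all 6 groups in one fit. With each mouse left out in turn it was 0 to 9 higher and 1 to 9 lower. Past an unadjusted p of 0.05 and a fold change of 2 there were 202 higher and 213 lower with one sum per library, 214 and 240 with a pseudocount of 0.1, 50 and 50 with a mean of 5 or more, 72 and 84 among transcripts above 0 in all 10 mice, and 74 lower with Ensembl identifiers only, with 106 to 150 higher and 114 to 144 lower over the mice left out. At an unadjusted p under 0.05 there were 315 higher and 285 lower with a mean of 5 or more, where fewer transcripts were tested, and 525 to 774 higher and 507 to 933 lower over the mice left out. Of the 13 transcripts called, 12 were also called after quantile normalization, 12 without the trend, 9 with a pseudocount of 0.1, 9 with one sum per library, 11 with no filter, 13 with array weights, and 0 with all 6 groups in one fit, and none was called in every setting in which it was tested. With all 6 groups the adjusted p (limma) was 0.110 for MERGE.8574.6 and MERGE.19990.6, 0.345 for ENSMUST00000202444 and 0.0785 for ENSMUST00000107843. The cause of these changes was not tested. No named transcript reversed in any setting in which it was tested. This could hardly turn out otherwise, since the settings share the same mice and the groups do not overlap. MERGE.8574.6 and MERGE.19990.6 were tested in 13 settings, ENSMUST00000202444 in 14 and ENSMUST00000107843 in 21. Over the mice left out, the difference AngII+GAS minus Control ran from -3935 to 16229 in the sum of FPKM, from -621 to 90.2 in transcripts at 1 or more, from 0.0868 to 2.03 percentage points in the share of the 100 most abundant, and from -277 to -60.4 in transcripts listed at 0, and that of the correlation within minus between groups from 1.86e-05 to 0.00276, none with an exact permutation p under 0.05. The depth of the libraries is unknown, so a value of 0 gives no upper limit.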
